A study of Homo sapiens with 18 samples.

Results

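When thapsigargin was used to empty calcium from the endoplasmic reticulum (ER), STIM1-depleted gemcitabine-resistant pancreatic cancer cells did not give the same 3 h transcriptional response as the parental cells. The comparison used 12 of the 18 libraries of the series, 3 in each of 4 groups. The parental cells, Par, are the human pancreatic cancer line L3.6pl. It received a control siRNA (siCont) and then DMSO vehicle or 500 nM thapsigargin. GemR is a gemcitabine-resistant derivative of L3.6pl that was kept in 64 nM gemcitabine. In this comparison it received an siRNA against STIM1 (siSTIM1) and then vehicle or 500 nM thapsigargin. All groups were transfected with siRNA for 48 h, and thapsigargin or vehicle was present for the last 3 h. No Par group among these samples received siSTIM1, so the effects of STIM1 depletion, resistance and culture in gemcitabine cannot be told apart in this contrast, and GemR is a single derivative. The quantity reported, the difference between responses, is the log2 change with thapsigargin in GemR siSTIM1 minus that in Par. A negative value means a smaller rise, or a larger fall, in GemR siSTIM1.

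Thapsigargin blocks the SERCA pump, which normally returns calcium from the cytosol to the ER. The empty store is sensed by STIM1, which opens ORAI channels in the plasma membrane, and calcium then enters the cytosol and activates calcineurin and NFAT, among other pathways. The ER itself loses the calcium that its chaperones need, and the unfolded protein response follows through PERK and ATF4, through ATF6, and through IRE1 and XBP1. Pancreatic cells, with their heavy secretory traffic, are known to rely on this response.

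STIM1 itself (chromosome 11, 3854527 to 4093210 on GRCh38) was read first, because it was the siRNA target. Its normalized counts, which divide each library's reads by its own size factor, were 444, 447 and 481 in Par vehicle, 423, 421 and 448 in Par thapsigargin, 390.3, 356 and 401 in GemR siSTIM1 vehicle and 272, 353 and 305 in GemR siSTIM1 thapsigargin. GemR with siCont held 4976, 6294 and 6401 in vehicle, so the siSTIM1 libraries lay far below their own line and just below Par, without overlap in either treatment. The log2 level in GemR siSTIM1 minus that in Par was −0.26 in vehicle (limma adjusted p = 0.031) and −0.48 with thapsigargin (adjusted p = 3.2e-04). The response of STIM1 was not called as different (−0.22 ± 0.14, adjusted p = 0.31). RRM1, the neighbouring gene that encodes the large subunit of ribonucleotide reductase, was at 3011, 2868 and 3059.5 in Par vehicle against 59323, 58788 and 55241 in GemR siSTIM1 vehicle, and its difference between responses was −0.02 ± 0.08 (adjusted p = 0.88).

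Reads recovered from the values numbered 8922439 to 16519239 per library. All 8 epithelial markers checked (keratins 7, 8, 18 and 19, EPCAM, CDH1, MUC1 and CEACAM6) were present in each of the 12 libraries, with summed levels of 98864 to 106844 in Par and 77423 to 91847 in GemR siSTIM1. The 10 immune and endothelial markers summed to 190.1 to 422. The 9 fibroblast markers summed to 1063 to 3200, with COL1A1 alone at 1007 to 3123. COL1A2 reached 76.1 and ACTA2 56.3, and DCN and FAP were at 0 throughout. GemR siSTIM1 thapsigargin replicate 1 stood apart: its counts differed from the other 2 replicates with a chi-square per gene of 14.8 and 14.0, where the other 10 pairs of replicates gave 1.80 to 4.67. Its deviation from its group fell with transcript length (Spearman's rho across genes of −0.49, against 0.36 and 0.37 in the other 2 replicates). For named genes and lists, most differences between responses that rest on this library are given with and without it. Single responses are given with it only. Values after ± are standard errors of the limma fit, adjusted p-values are from limma with Benjamini-Hochberg adjustment over all 13096 genes tested, and 0.05 was the threshold of a call. The labels number the replicates without saying whether they were separate cultures, so p-values measure only the spread between these libraries.

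Thapsigargin changed 5253 genes in Par, 40.1% of those tested (2679 rose, 20.5%, and 2574 fell, 19.7%), and 3187 in GemR siSTIM1, 24.3% (1635 rose, 12.5%, and 1552 fell, 11.9%). The difference between these responses was called for 1045 of 13096 genes, a background of 7.98%. It was higher in GemR siSTIM1 for 400 genes (3.05%) and lower for 645 (4.93%), and 200 of the 1045 differed at least 2-fold. Without GemR siSTIM1 thapsigargin replicate 1, 666 genes were called, 258 higher and 408 lower. Of these, 635 were among the 1045, none with the opposite sign. The count was 691 without Par vehicle replicate 1 and 621 without either Par thapsigargin replicate 1 or GemR siSTIM1 vehicle replicate 1. A fit of the 12 compared libraries alone called 2164, 906 higher and 1258 lower.

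Genes with a lower response in GemR siSTIM1 were mostly genes that rose in Par. Of the 645, 533 rose in Par, and of those 209 rose in GemR siSTIM1 as well, 286 were not called there and 38 fell. Among the 400 genes with a higher response, 283 fell in Par, of which 203 were not called in GemR siSTIM1, 66 fell there as well and 14 rose. A further 65 rose in GemR siSTIM1 without a call in Par, and 51 rose in both. These counts share libraries with the contrast itself and are given as a description. Par and GemR siSTIM1 also differed in level before treatment, at 50.4% of the genes tested (24.2% higher and 26.3% lower in GemR siSTIM1), and after it, at 53% (24.7% and 28.3%). For 149 of the 400 and 241 of the 645, a level difference between the lines was called with thapsigargin and not in vehicle. For 99 and 143 it was called in vehicle and not with thapsigargin, and for 151 and 260 in both.

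**Figure D1:**
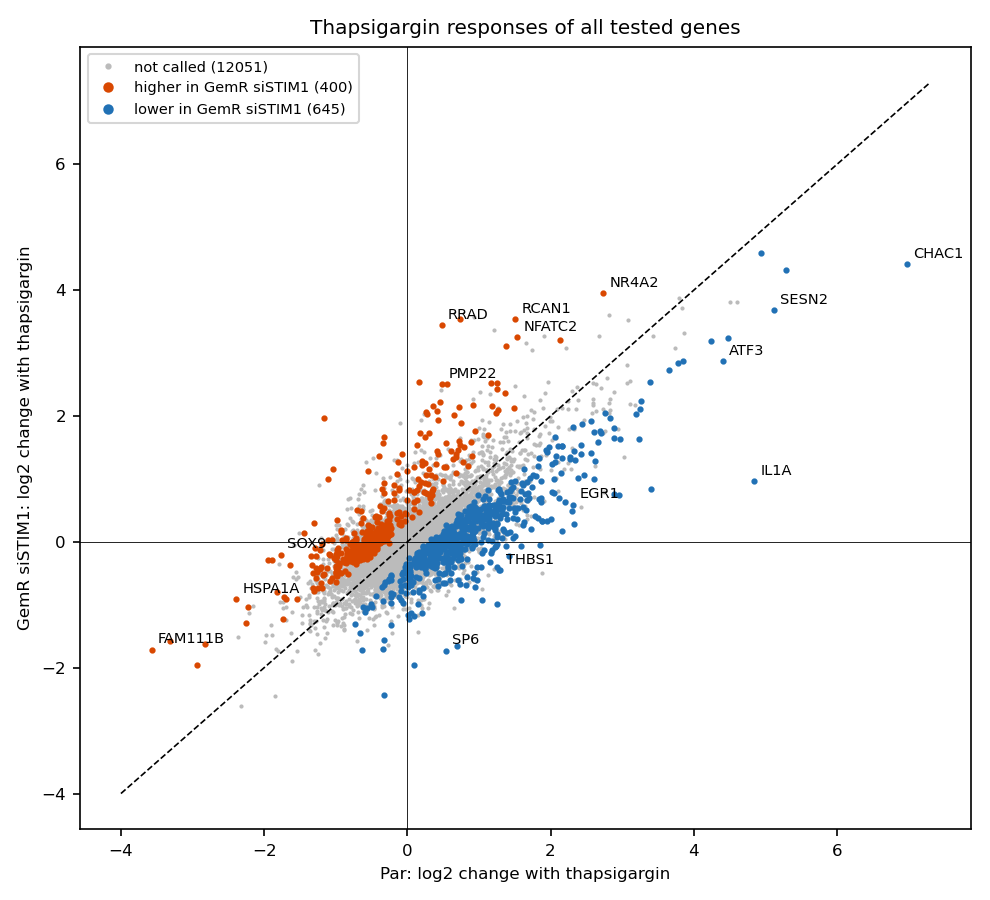
Thapsigargin responses (log2 change against vehicle) of 13096 genes in Par (x axis) and GemR siSTIM1 (y axis). Orange points are the 400 genes with a higher response in GemR siSTIM1 and blue points the 645 with a lower one, grey points were not called, and the dashed line marks equal responses. CHAC1, SESN2, ATF3 and IL1A lie far to the right below the line, RRAD, RCAN1 and NFATC2 above it.

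The factors and effectors of the PERK-ATF4 arm were induced in both lines and less so in GemR siSTIM1. Of 18 genes on the list, 17 rose in Par, where 20.5% of all genes did, and 16 in GemR siSTIM1, where 12.5% did. The difference between responses was lower for 12 of 18 and higher for none, with a median of −0.71 against a median of 0.00 over all genes tested. Over all genes it was lower for 4.93% and higher for 3.05%, the shares to set beside each list count that follows. Without GemR siSTIM1 thapsigargin replicate 1 it was lower for 13 of 18, with a median of −0.81.

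CHAC1 (chromosome 15, 40952962 to 40956519), an enzyme that degrades glutathione and is a distal target of this arm, had the most negative difference on the list. Its normalized counts were 21.3, 28.2 and 23.4 in Par vehicle and 3046, 3353 and 3089 in Par thapsigargin, and 109, 106 and 89.4 in GemR siSTIM1 vehicle and 2482, 1959.9 and 2092 in GemR siSTIM1 thapsigargin. GemR siSTIM1 thus started above Par and ended below it, with no overlap between any of the groups. The rise was 126-fold in Par and 21.2-fold in GemR siSTIM1, a log2 difference of −2.56 ± 0.16 (adjusted p = 9.9e-09). All folds here are on the scale of log2(normalized count + 1), which understates changes of genes with few reads.

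ATF3 (chromosome 1, 212565334 to 212620777), a stress-induced transcription factor, showed another pattern. Counts were 58.9, 111 and 89.7 in Par vehicle and 1968, 1801 and 1639.6 in Par thapsigargin, against 87.6, 72.2 and 95.3 and 599, 613 and 669.6 in GemR siSTIM1. The lines overlapped in vehicle and separated with thapsigargin, where every GemR siSTIM1 library lay far below every Par library. The log2 rise was 4.41 in Par and 2.88 in GemR siSTIM1, a difference of −1.53 ± 0.23 (adjusted p = 2.7e-04). SESN2, a sestrin that restrains mTORC1 signalling, went from 98.5, 101 and 114 to 3693, 3647 and 3634 in Par and from 149, 152 and 176 to 2129.9, 2020.2 and 1988 in GemR siSTIM1. Its vehicle levels were higher and its thapsigargin levels lower in GemR siSTIM1, without overlap, and the difference was −1.44 ± 0.19 (adjusted p = 7.0e-05). CEBPB, a basic leucine zipper factor that partners with ATF4, did the same, from 244, 226 and 230.2 to 1794, 1606 and 1808 in Par and from 394, 411 and 420.1 to 1327, 1221 and 1308 in GemR siSTIM1 (−1.24 ± 0.13, adjusted p = 6.0e-06).

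The core of the arm moved in the same direction. Its genes that follow were named after their values were seen. ATF4, the transcription factor whose translation PERK switches on, was at 2548, 2728 and 2602 in Par vehicle and 10738, 10847 and 11252 in Par thapsigargin, and at 3644, 3852 and 3532 and 9814, 8347 and 8584 in GemR siSTIM1. Its mRNA started higher and ended lower in GemR siSTIM1 (−0.78 ± 0.10, adjusted p = 7.6e-05). DDIT3, which encodes the pro-apoptotic factor CHOP, rose from 169, 159 and 188 to 6508, 6819 and 6868 in Par and from 173, 194 and 182 to 4225, 3436 and 3401 in GemR siSTIM1. The starting levels of DDIT3 overlapped and the end levels did not, for a difference of −0.97 ± 0.16 (adjusted p = 9.8e-04). The differences were −1.02 ± 0.12 for the pseudokinase TRIB3 (adjusted p = 2.6e-05) and −1.14 ± 0.15 for PPP1R15A, the phosphatase subunit GADD34 that reverses the block on translation (adjusted p = 7.0e-05). CEBPG, DDIT4, JDP2 and EIF2AK3, the gene of PERK itself, were the other 4 lower members, at −0.47, −0.85, −0.55 and −0.64. The call of JDP2, an AP-1 repressor, was lost in 6 of the 12 fits with 1 library left out (adjusted p up to 0.072, without Par vehicle replicate 1). The 6 members not called were ATF5 at −0.02, NUPR1 at 0.36, VLDLR at 0.28, KLHL24 at −0.36, NFE2L1 at −0.22 and TXNIP at −0.60.

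**Figure D2:**
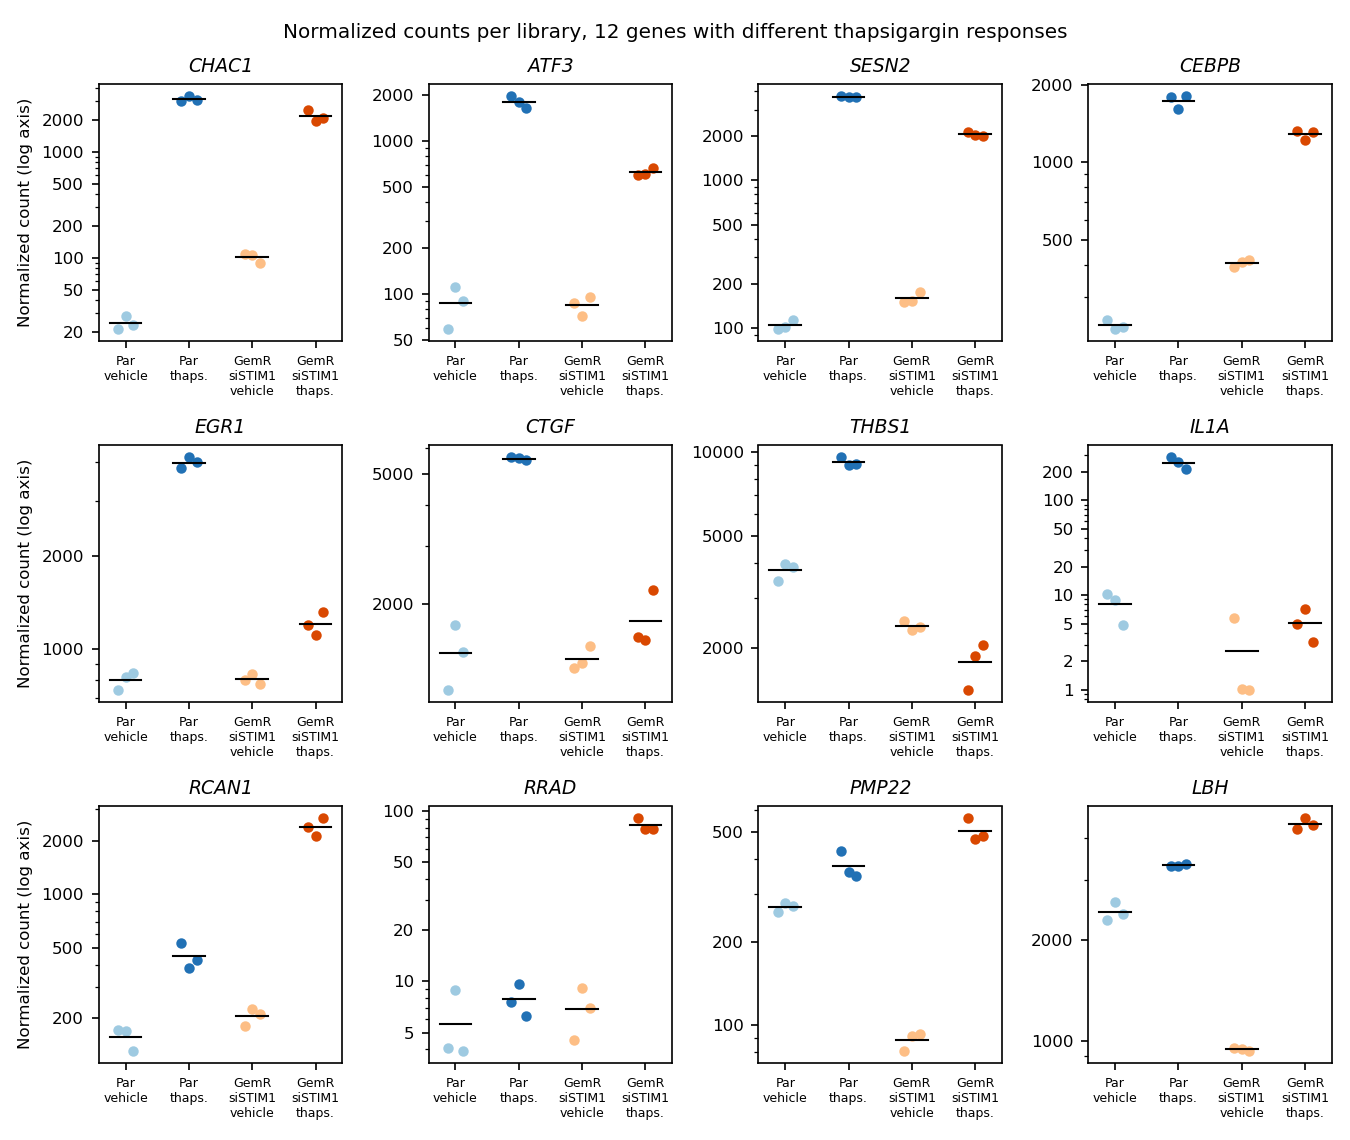
Normalized counts of 12 genes in the 12 libraries, on log axes that differ between panels. Each point is 1 library and each short line the mean of 3. CHAC1, SESN2 and CEBPB are higher in GemR siSTIM1 vehicle and lower in GemR siSTIM1 thapsigargin than in Par, ATF3, EGR1 and CTGF overlap in vehicle and stand apart after thapsigargin, and RCAN1, RRAD, PMP22 and LBH rise further in GemR siSTIM1.

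Chaperones and folding enzymes that ATF6 and XBP1 control rose by similar amounts in both lines. All 20 rose in Par and 18 rose in GemR siSTIM1, with median log2 rises of 1.40 and 1.26. The difference between responses was lower for 1 of 20 and higher for none, with a median of −0.11. The levels themselves were lower in GemR siSTIM1 for 19 of 20 in vehicle (median −0.43), where 26.3% of all genes were lower. With thapsigargin they were lower for 19 of 20 as well (median −0.56), where 28.3% of all genes were lower. HSPA5 (BiP), the main ER chaperone, was at 15483, 15815 and 14944 in Par vehicle and 111138, 106362 and 103042 in Par thapsigargin, and at 13574, 13409.7 and 13417 and 87374, 79392 and 78014 in GemR siSTIM1. Its levels were lower in GemR siSTIM1 in both treatments, and the difference between responses was −0.20 with a 95% interval from −0.37 to −0.02 (adjusted p = 0.15). For HSP90B1 (GRP94), the ER member of the HSP90 family, it was −0.12, with an interval from −0.36 to 0.12 (adjusted p = 0.52). Both chaperones were named after their values were seen. The member called was ERO1B, an oxidase that helps form disulfide bonds (−0.47 ± 0.12, adjusted p = 0.022). That call was lost in 5 of the 12 fits with 1 library left out (adjusted p up to 0.068, without GemR siSTIM1 vehicle replicate 1), and by edgeR (adjusted p = 0.052). ERN1, the gene of IRE1, singled out for its size, was at −1.12 and was not called (adjusted p = 0.15). Whether the 2 lists differ from each other was not tested.

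Promoter sequences are shown for 2 genes of the PERK-ATF4 list and 2 of the ATF6-XBP1 list, because these 4 hold a match to the letters of a stress element. Whether the matches act in these cells was not tested. They are RefSeq promoters on GRCh38.p14, from 250 bases before to 50 bases after the start site, printed 5′ to 3′ on the gene's strand with the element in capitals. The ATF4 site searched was TGATGNAA, and the ER stress element (ERSE) was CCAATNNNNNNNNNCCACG, where N is any base, both on either strand.
CHAC1, chr15:40953221-40953520, plus strand, ATF4 site on the opposite strand: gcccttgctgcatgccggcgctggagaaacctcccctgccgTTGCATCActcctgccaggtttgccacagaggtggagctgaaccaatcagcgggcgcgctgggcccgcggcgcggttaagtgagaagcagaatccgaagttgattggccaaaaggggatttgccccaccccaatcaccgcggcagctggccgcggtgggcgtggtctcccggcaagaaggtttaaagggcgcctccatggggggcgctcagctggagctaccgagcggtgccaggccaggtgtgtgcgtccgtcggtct
ATF3, chr1:212565157-212565456, plus strand, ATF4 site: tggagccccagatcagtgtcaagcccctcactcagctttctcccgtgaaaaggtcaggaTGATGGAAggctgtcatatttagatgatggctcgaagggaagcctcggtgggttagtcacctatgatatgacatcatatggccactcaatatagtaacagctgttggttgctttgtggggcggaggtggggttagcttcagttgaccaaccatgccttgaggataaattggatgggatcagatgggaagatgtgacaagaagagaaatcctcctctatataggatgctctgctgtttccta
HSPA5, chr9:125241294-125241593, minus strand, ERSE: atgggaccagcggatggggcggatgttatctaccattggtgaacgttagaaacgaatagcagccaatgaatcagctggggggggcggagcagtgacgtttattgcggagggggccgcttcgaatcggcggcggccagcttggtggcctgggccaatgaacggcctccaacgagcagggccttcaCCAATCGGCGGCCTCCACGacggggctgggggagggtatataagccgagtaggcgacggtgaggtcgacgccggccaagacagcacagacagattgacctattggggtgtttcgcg
ERO1B, chr1:236281909-236282208, minus strand, ERSE on the opposite strand: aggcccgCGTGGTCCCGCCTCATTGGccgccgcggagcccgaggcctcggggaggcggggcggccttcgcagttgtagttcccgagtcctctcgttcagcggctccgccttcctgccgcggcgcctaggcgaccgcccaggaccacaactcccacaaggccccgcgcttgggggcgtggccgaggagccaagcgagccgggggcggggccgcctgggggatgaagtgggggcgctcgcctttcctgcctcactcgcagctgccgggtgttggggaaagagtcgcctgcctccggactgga

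The ATF4 site began 209 bases before the start site in CHAC1 and 191 before it in ATF3. The ERSE began 66 bases before the start site in HSPA5 and 243 before it in ERO1B. Among the promoters matched, ATF4 sites stood in 2 of 17 of the PERK-ATF4 list and in 0 of 19 of the ATF6-XBP1 list, and 3.62% of all 35116 promoters held one. The ERSE stood in 0 of 17 and in 7 of 19 (HSPA5, HSP90B1, CALR, CANX, CRELD2, XBP1 and ERO1B), against 0.0769% of all promoters. The related ERSE-II, ATTGGNCCACG, stood in 0 of 17 and in 2 of 19 (HYOU1 and SDF2L1), against 0.0541%. No promoter of these lists held both the ERSE and the ERSE-II. HSPA5 and ERO1B thus carried a match to the same element and had differences of −0.20 and −0.47.

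ER-associated degradation and transport genes rose in both lines with small differences. Of 16 degradation genes tested, 12 rose in Par and 11 in GemR siSTIM1, and the difference was lower for 3 and higher for none (median −0.17), and lower for 1 without Par thapsigargin replicate 1. HERPUD1, which organizes the degradation complex, went from 976, 939.6 and 937 to 29804, 28964 and 28741 in Par and from 834, 889.5 and 879 to 21907, 20212 and 20363 in GemR siSTIM1. Both groups of GemR siSTIM1 lay below their Par counterparts, and the difference was −0.35 ± 0.09 (adjusted p = 0.018). The ubiquitin ligase SYVN1 (HRD1) and its partner SEL1L differed by −0.41 ± 0.09 and −0.58 ± 0.15 (adjusted p = 0.011 and 0.019). Leaving out single libraries ended the call for SEL1L without Par vehicle replicate 1, Par thapsigargin replicate 1, GemR siSTIM1 vehicle replicate 1 or GemR siSTIM1 thapsigargin replicate 1 (adjusted p up to 0.064) and HERPUD1 without Par thapsigargin replicate 1 (adjusted p = 0.053), and edgeR called neither HERPUD1 nor SYVN1 (adjusted p = 0.070 and 0.061). Among 22 translocon and vesicle coat genes, 2 were lower, both of the COPII coat that carries cargo out of the ER: SEC31A at −0.63 ± 0.14 and SEC24D at −0.56 ± 0.11 (adjusted p = 0.0093 and 0.0036).

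Amino acid supply, a main output of ATF4, was induced to a similar extent in both lines. Of 20 enzymes and carriers tested, 18 rose in each line, and the median difference was 0.02. The levels themselves were mostly lower in GemR siSTIM1. In vehicle 17 of 20 were lower and 2 higher (median −0.71), where 26.3% of all genes were lower. With thapsigargin 18 were lower and none higher (median −0.75), where 28.3% of all genes were lower. The 3 lower genes were carriers. SLC38A2, which imports neutral amino acids, was at 2869, 2834 and 3035 in Par vehicle and 24341, 22104 and 21980.3 in Par thapsigargin, and at 6661, 6038 and 6140.4 and 16900.1, 20545 and 21235 in GemR siSTIM1. GemR siSTIM1 started clearly higher than Par and ended just below it, with a difference of −1.33 ± 0.13 (adjusted p = 4.1e-06). SLC7A11, the cystine importer, differed by −1.14 ± 0.16 (adjusted p = 1.5e-04) and SLC7A1, a carrier of cationic amino acids, by −0.66 ± 0.19 (adjusted p = 0.041). PCK2, a mitochondrial enzyme of gluconeogenesis, was the 1 higher gene (0.42 ± 0.11, adjusted p = 0.028). Calls were lost for SLC7A1 in 9 of the 12 fits with 1 library left out (adjusted p up to 0.11, without GemR siSTIM1 thapsigargin replicate 1) and PCK2 in 7 of the 12 fits with 1 library left out (adjusted p up to 0.074, without Par vehicle replicate 2). Without GemR siSTIM1 thapsigargin replicate 1, 2 of 20 were lower and none higher. Serine and asparagine synthesis gave smaller values that were not called, for example 0.02 for PSAT1, 0.13 for PHGDH and 0.29 for ASNS, examples chosen after their values were seen. SLC7A11-AS1, an RNA antisense to SLC7A11, was among the 12 lowest genes (−2.56 ± 0.75, adjusted p = 0.042), but no source used here states strand-aware counting, so its reads cannot be told apart from those of SLC7A11. Its call was lost in 8 of the 12 fits with 1 library left out (adjusted p up to 0.12, without GemR siSTIM1 thapsigargin replicate 1).

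The enzymes that charge tRNAs rose less in GemR siSTIM1 at 4 of 20 (EPRS, TARS, NARS and AARS, −0.39 to −0.25), with a median difference of −0.11. In Par 12 rose, with a list median of 0.65, and in GemR siSTIM1 11 rose, with a median of 0.40. When GemR siSTIM1 thapsigargin replicate 1 was left out, 1 of 20 was called, and the count was 1 in 9 of the 12 fits with 1 library left out. EPRS, which charges glutamate and proline, was at 3921, 3850.5 and 3928 in Par vehicle, 7279, 6833 and 7047 in Par thapsigargin, 4085, 3927 and 3798 in GemR siSTIM1 vehicle and 4978, 5821 and 5540.1 in GemR siSTIM1 thapsigargin (difference −0.39 ± 0.09, adjusted p = 0.015). Its vehicle levels overlapped and its end levels did not. With single libraries left out EPRS kept its call, and calls were lost for TARS in 9 of the 12 fits with 1 library left out (adjusted p up to 0.091, without Par thapsigargin replicate 1), NARS in 10 of the 12 fits with 1 library left out (adjusted p up to 0.11, without GemR siSTIM1 vehicle replicate 1) and AARS in 10 of the 12 fits with 1 library left out (adjusted p up to 0.12, without Par vehicle replicate 1). On quantile-normalized values none of the 4 was called.

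Secreted stress factors gave a lower response at 4 of 6, and 6 of 6 rose in each line. ADM2, a peptide hormone of the calcitonin family, rose from 93.4, 131 and 113 to 2560.1, 2566 and 2378 in Par and from 174, 145 and 156 to 1680.2, 1459 and 1395 in GemR siSTIM1. It started higher and ended lower in GemR siSTIM1, and differed by −1.23 ± 0.16 (adjusted p = 7.6e-05). STC2, a stanniocalcin glycoprotein, went from 1105, 1211 and 1218 to 14558, 15024 and 14842 in Par and from 1731, 1695 and 1631 to 11283, 11138 and 11081 in GemR siSTIM1, with a difference of −0.92 ± 0.07 (adjusted p = 3.4e-07). GDF15, a circulating stress signal, had overlapping vehicle levels (1264, 1193 and 1403 in Par, 1322, 1402 and 1158 in GemR siSTIM1). It reached 5868, 5807 and 5431 in Par and 3269, 2584 and 2438 in GemR siSTIM1, a difference of −1.06 ± 0.17 (adjusted p = 4.6e-04). The difference of INHBE, an activin subunit, was −1.61 ± 0.46 (adjusted p = 0.036), and its call was lost in 10 of the 12 fits with 1 library left out (adjusted p up to 0.10, without Par vehicle replicate 1) and by edgeR (adjusted p = 0.21). The remaining 2 factors, FGF21 at −1.14 and VEGFA at −0.13, were not called.

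Among calcium-regulated genes were some with a higher response in GemR siSTIM1. RCAN1 (chromosome 21, 34513142 to 34615142), a feedback inhibitor of calcineurin whose transcription NFAT drives, was at 172, 169 and 131 in Par vehicle and 534, 385 and 425 in Par thapsigargin, and at 182, 227 and 211 and 2396, 2135 and 2681 in GemR siSTIM1. The vehicle levels were slightly higher in GemR siSTIM1, and the thapsigargin levels were far above those of Par. Its rise was 2.83-fold in Par and 11.6-fold in GemR siSTIM1, a log2 difference of 2.03 ± 0.17 (adjusted p = 5.8e-07). NFATC2 (NFAT1), a calcineurin-activated transcription factor, was at 186, 270.2 and 178 and 682, 597 and 544 in Par vehicle and thapsigargin, and at 86.5, 53.9 and 78.5 and 549.5, 729.98 and 822 in GemR siSTIM1. It started lower in GemR siSTIM1 and ended at overlapping levels (1.72 ± 0.27, adjusted p = 4.5e-04).

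The other calcineurin-NFAT members split. NFAT5, the osmotic stress member that does not depend on calcineurin, and DYRK1A, a kinase that sends NFAT out of the nucleus, were lower, at −1.01 ± 0.29 and −0.56 ± 0.13 (adjusted p = 0.039 and 0.013). The call of NFAT5 depended on single libraries and was lost in 8 of the 12 fits with 1 library left out (adjusted p up to 0.11, without GemR siSTIM1 thapsigargin replicate 1). In all, 2 of 13 were higher and 2 lower, with a median of −0.05. PTGS2 (cyclooxygenase 2), named after its values were seen, rose in both lines and was not called in the difference (−0.26, 95% interval −0.64 to 0.12).

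Of 20 genes of calcium entry, stores and pumps, 3 were higher and none lower (median 0.14). RRAD (chromosome 16, 66921679 to 66925644), a small GTPase that restrains voltage-gated calcium channels, had the highest difference of all named genes. Its counts were 4.06, 8.91 and 3.90 in Par vehicle, 7.55, 9.71 and 6.24 in Par thapsigargin, 4.55, 9.15 and 6.95 in GemR siSTIM1 vehicle and 90.9, 79.02 and 78.2 in GemR siSTIM1 thapsigargin. Only the last group stood clear of the others, and the 3 remaining groups held 14 to 23 reads each in total. The difference was 2.97 ± 0.43 (adjusted p = 1.8e-04). ATP2B1, the pump that exports calcium across the plasma membrane, rose from 2255, 2483 and 2228 to 4569.7, 4161 and 4242 in Par and from 2363, 2172 and 2306 to 5319, 6173 and 6148 in GemR siSTIM1 (0.47 ± 0.11, adjusted p = 0.012). The channel subunits ORAI1, ORAI2 and ORAI3 were at 0.26, 0.52 and 0.21 and the SERCA gene ATP2A2 at −0.39, and none of these 4, named for their place in the pathway after values were seen, was called.

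Immediate early genes, the first wave of transcription after a signal, were mostly induced in both lines but diverged gene by gene. Of 27, 23 rose in Par and 19 in GemR siSTIM1, and the difference was higher for 4 and lower for 7 (median −0.26). These counts were 3 and 5 without GemR siSTIM1 thapsigargin replicate 1. With 1 library left out at a time they ranged from 2 to 4 higher, with 2 in 9 of the 12 fits, and from 4 to 7 lower, with 4 without Par vehicle replicate 1. By edgeR 2 were higher and 3 lower. EGR1 (chromosome 5, 138465490 to 138469315), a zinc finger factor induced through ERK, was at 740.1, 815 and 837 in Par vehicle and 3811, 4136 and 3978 in Par thapsigargin, and at 798, 836 and 773 and 1201, 1110.2 and 1319 in GemR siSTIM1. The vehicle levels overlapped, while the thapsigargin levels lay far apart. Its rise was 4.99-fold in Par and 1.51-fold in GemR siSTIM1 (log2 difference −1.73 ± 0.12, adjusted p = 6.2e-08). EGR2, a close relative, differed by −1.24 ± 0.30 (adjusted p = 0.014), and was not called by edgeR or DESeq2 (adjusted p = 0.20 by edgeR). NR4A2, an orphan nuclear receptor, went the other way, from 84.3, 120.2 and 121 to 721, 687 and 745 in Par and from 53.5, 56.9 and 63.6 to 834, 903 and 1012 in GemR siSTIM1. It started lower and ended higher in GemR siSTIM1 (1.22 ± 0.25, adjusted p = 0.0039). FOSB, an AP-1 subunit, was also higher (0.98 ± 0.29, adjusted p = 0.045), with the call lost in 10 of the 12 fits with 1 library left out (adjusted p up to 0.11, without Par vehicle replicate 2).

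Feedback genes of the ERK pathway had a lower response at 7 of 17 and a higher one at 2 (median −0.44), and at 5 and 2 without GemR siSTIM1 thapsigargin replicate 1. ERRFI1 (MIG6), an inhibitor of the EGF receptor, was at 2361, 3404 and 2538 in Par vehicle and 20689, 19901 and 19751 in Par thapsigargin, and at 1667, 1541 and 1628 and 5229, 5418 and 6292 in GemR siSTIM1. It was lower in GemR siSTIM1 before and, by more, after thapsigargin (−1.08 ± 0.15, adjusted p = 8.9e-05). The nuclear ERK phosphatase DUSP5 differed by −0.98 ± 0.14 (adjusted p = 1.8e-04). For DUSP1, which acts on JNK and p38 too, the difference was −0.86 ± 0.24 (adjusted p = 0.032), a call lost in 8 of the 12 fits with 1 library left out (adjusted p up to 0.092, without Par vehicle replicate 1). SPRY1, a Sprouty inhibitor of receptor signalling, fell in both lines, from 480.2, 399 and 449.6 to 58.5, 56.1 and 55.1 in Par and from 249, 226 and 257 to 48.4, 68.1 and 72.5 in GemR siSTIM1. Its end levels overlapped, so the higher difference (0.99 ± 0.23, adjusted p = 0.011) came with a lower level in vehicle.

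Cytokines and EGF receptor ligands were lower at 6 of 11 and higher at 1 (median −0.78), with the same counts without GemR siSTIM1 thapsigargin replicate 1. IL1A (chromosome 2, 112773915 to 112784590), which encodes the alarmin interleukin 1 alpha, had the most negative difference among the named genes. Its counts were 10.2, 8.91 and 4.88 in Par vehicle, 285, 253 and 212 in Par thapsigargin, 5.69, 1.02 and 0.993 in GemR siSTIM1 vehicle and 4.94, 7.04 and 3.22 in GemR siSTIM1 thapsigargin. Only Par with thapsigargin stood above the others, with 740 reads in its 3 libraries, while the GemR siSTIM1 groups held 7 reads in vehicle and 18 with thapsigargin. The log2 difference was −3.88 ± 0.73 (adjusted p = 0.0024). Its size rested on few reads and ranged from −4.35 to −3.30 over all settings tried, with −4.30 by edgeR. EPGN, an EGF receptor ligand, rose from 83.2, 83.1 and 81.9 to 454, 395 and 413 in Par, while GemR siSTIM1 held 22.8, 17.3 and 17.9 in vehicle and 15.8, 43.8 and 18.5 with thapsigargin. Its GemR siSTIM1 groups overlapped (−2.05 ± 0.48, adjusted p = 0.012). LIF, a cytokine of the interleukin 6 family, started higher in GemR siSTIM1 and ended level with Par (−1.02 ± 0.11, adjusted p = 1.2e-05). IL11, of the same family, was the higher gene: 13.2, 16.3 and 16.6 in Par vehicle, 19.8, 15.1 and 21.8 in Par thapsigargin, 23.9, 28.5 and 18.9 in GemR siSTIM1 vehicle and 91.9, 86.8 and 121 in GemR siSTIM1 thapsigargin (1.76 ± 0.35, adjusted p = 0.0037).

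NF-kB factors and targets gave little difference, 1 higher of 19 and none lower, although 12 rose in Par and 14 in GemR siSTIM1. The gene called was CXCL1, a neutrophil chemokine, at 437, 655 and 481 and 619, 584 and 547 in Par vehicle and thapsigargin and at 116, 111 and 126 and 397, 342 and 446 in GemR siSTIM1. It rose in GemR siSTIM1 from a lower start and was not called in Par (1.56 ± 0.24, adjusted p = 3.5e-04). The chemokine CCL20 at 1.37 and the NF-kB subunit REL at −1.22, singled out for their size, were not called.

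Genes linked to the YAP and TEAD transcription factors, which respond to cell shape and density, were lower at 7 of 14 and higher at none (median −0.56), and at 6 of 14 without GemR siSTIM1 thapsigargin replicate 1. In Par 8 rose and 2 fell, in GemR siSTIM1 1 rose and 5 fell. CTGF (CCN2), a secreted matricellular protein, was at 1091, 1723 and 1423 in Par vehicle and 5618, 5576 and 5498 in Par thapsigargin, and at 1277, 1324 and 1487 and 1583, 1551 and 2199.9 in GemR siSTIM1. Its vehicle levels overlapped, and its thapsigargin levels were far higher in Par (−1.63 ± 0.20, adjusted p = 2.9e-05). ANKRD1, a muscle ankyrin repeat protein, fell in both lines, from 1431, 1283 and 1417 to 801, 933 and 920.1 in Par and from 356, 367 and 367 to 108, 104 and 116 in GemR siSTIM1. The fall was larger in GemR siSTIM1 (−1.09 ± 0.12, adjusted p = 1.0e-05). AMOTL2, an angiomotin that binds YAP, rose in Par and was not called in GemR siSTIM1 (−0.90 ± 0.15, adjusted p = 7.3e-04). TEAD1 itself was at −0.86 ± 0.23 (adjusted p = 0.027), with the call lost in 5 of the 12 fits with 1 library left out (adjusted p up to 0.081, without Par thapsigargin replicate 1).

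THBS1 (thrombospondin 1, chromosome 15, 39581079 to 39599466), a matrix glycoprotein and one of the 12 lowest genes, was at 3466, 3989 and 3895 in Par vehicle and 9596, 9004 and 9064 in Par thapsigargin, and at 2486, 2315 and 2377 and 1410.4, 1866 and 2042 in GemR siSTIM1. It rose in Par and fell in GemR siSTIM1 without overlap between treatments in either line, and the difference was −1.74 ± 0.21 (adjusted p = 2.9e-05). The fall in GemR siSTIM1 had a limma adjusted p of 0.033. GemR siSTIM1 thapsigargin replicate 1 was the lowest of its group, and without it the difference was −1.58 (adjusted p = 6.7e-05).

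The other genes at the ends of the ranking differed in where the lines stood before treatment. PMP22 (chromosome 17, 15229777 to 15265357), a tetraspan membrane protein of myelin and epithelia, was at 258, 278 and 271 in Par vehicle and 428, 360.4 and 348 in Par thapsigargin, and at 80.8, 91.5 and 93.4 and 562, 473 and 484 in GemR siSTIM1. GemR siSTIM1 started under Par and ended over it (2.01 ± 0.16, adjusted p = 3.4e-07). LBH, a transcriptional cofactor, crossed in the same way, from 2280.2, 2593 and 2388 to 3314, 3312 and 3345 in Par and from 954, 947 and 932 to 4278, 4593 and 4395 in GemR siSTIM1 (1.77 ± 0.10, adjusted p = 6.1e-09).

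CRIP2, a LIM domain protein, and KIAA1462 (JCAD), a junction protein, started lower in GemR siSTIM1 and ended at overlapping levels (1.96 ± 0.34 and 1.92 ± 0.31, adjusted p = 0.0012 and 6.8e-04). RERG, a RAS-like growth inhibitor, started lower and ended higher (1.80 ± 0.23, adjusted p = 4.4e-05). CORO6, a coronin that started somewhat higher in GemR siSTIM1, and PPP1R14C, a phosphatase inhibitor with overlapping vehicle levels, rose in GemR siSTIM1 without a call in Par (1.999 ± 0.30 and 1.81 ± 0.24, adjusted p = 2.4e-04 and 9.2e-05). C11orf86, a little-studied gene, fell in Par from 25.4, 25.2 and 20.5 to 7.55, 11.9 and 14.6 and rose in GemR siSTIM1 from 48.9, 42.7 and 43.7 to 136, 93.9 and 81.4 (2.19 ± 0.40, adjusted p = 0.0020).

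On the lower side, SP6, a zinc finger factor of the SP family, was at 12.2, 13.4 and 7.80 and 15.1, 19.4 and 14.6 in Par vehicle and thapsigargin and at 215, 198 and 205 and 67.2, 61.03 and 56.4 in GemR siSTIM1. It started far higher in GemR siSTIM1, fell there and remained above Par (−2.27 ± 0.25, adjusted p = 1.0e-05). SH3RF2, a ubiquitin ligase, PLEKHA6, a junction protein, and PXDN, a matrix peroxidase, also started higher in GemR siSTIM1, and after thapsigargin their levels were not called apart from Par (−1.67 ± 0.20, −1.91 ± 0.42 and −2.24 ± 0.45). The adjusted p-values were 2.3e-05, 0.0076 and 0.0040. ELMSAN1 (MIDEAS), part of a histone deacetylase complex, rose in Par and fell in GemR siSTIM1 (−1.72 ± 0.21, adjusted p = 2.8e-05). Its fall had a limma adjusted p of 0.032. PLCXD2, a phospholipase-like protein, was at −1.99 ± 0.59 (adjusted p = 0.044), and its call was lost in 10 of the 12 fits with 1 library left out (adjusted p up to 0.12, without GemR siSTIM1 thapsigargin replicate 1).

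**Figure D3:**
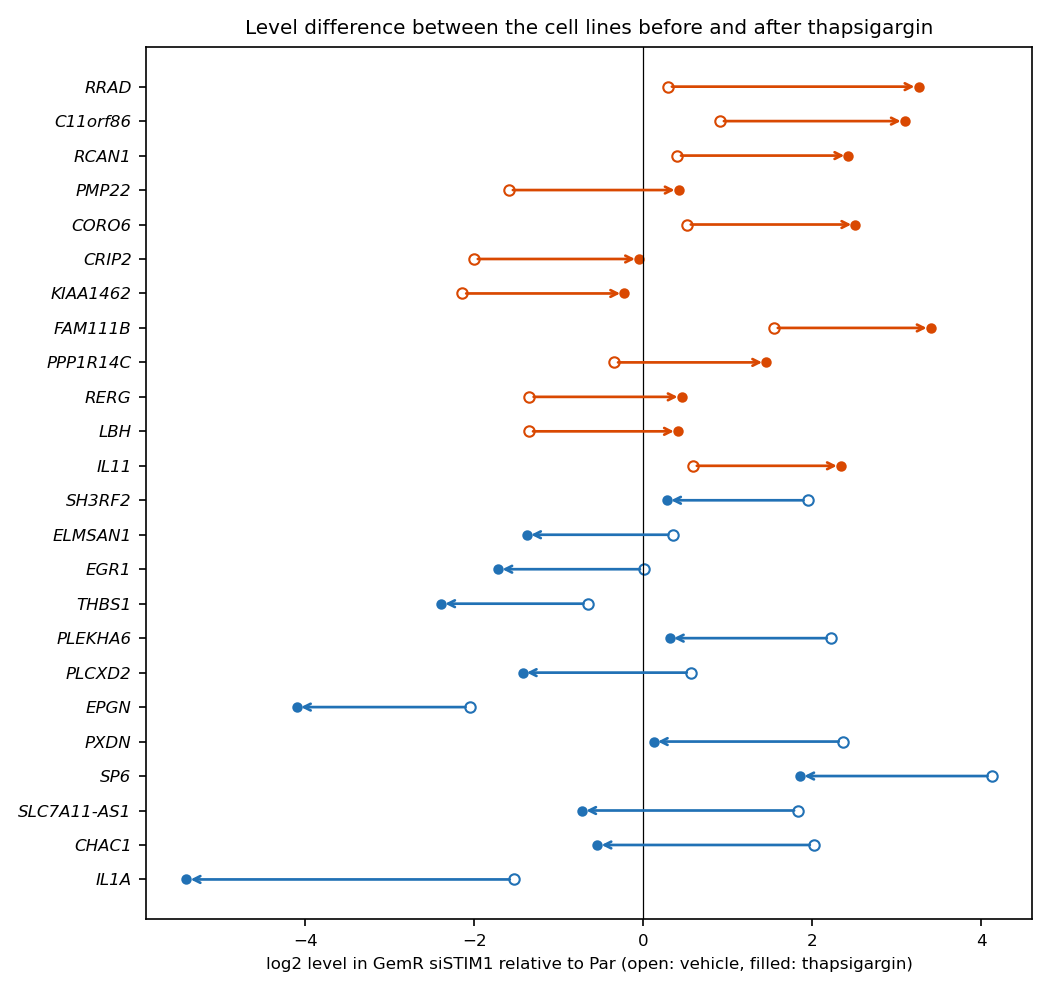
Level in GemR siSTIM1 relative to Par (log2, x axis) in vehicle (open circles) and with thapsigargin (filled circles) for the 12 highest (orange) and the 12 lowest (blue) differences between responses among called genes with a group mean of at least 50. The length of each arrow is the difference itself, 2.97 for RRAD and −3.88 for IL1A. PMP22, RERG and LBH cross from below Par to above it, CHAC1 crosses the other way, and EGR1 starts near 0.

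Sterol synthesis genes, targets of SREBP2, were lower at 5 of 22 and higher at none (median −0.21), with the same counts without GemR siSTIM1 thapsigargin replicate 1. HMGCS1, which makes the precursor of mevalonate, was at 1909, 2178 and 1833 in Par vehicle and 6866, 6100.3 and 6091 in Par thapsigargin, and at 1721, 1694 and 1710.2 and 2659, 2851 and 3308 in GemR siSTIM1. GemR siSTIM1 started slightly below Par and ended far below it (−0.91 ± 0.12, adjusted p = 6.1e-05). The SREBP retention factor INSIG1 and the demethylase MSMO1 differed by −0.82 ± 0.20 and −0.75 ± 0.13 (adjusted p = 0.017 and 0.0012). The call was lost for INSIG1 without Par vehicle replicate 1, Par thapsigargin replicate 1 or GemR siSTIM1 vehicle replicate 1 (adjusted p up to 0.057).

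Redox genes of the NRF2 program were lower at 6 of 15 and higher at none (median −0.27), at 4 of 15 without GemR siSTIM1 thapsigargin replicate 1 or GemR siSTIM1 vehicle replicate 3, and at 3 of 15 without Par vehicle replicate 1 or Par thapsigargin replicate 1. NFE2L2, which encodes NRF2, rose from 2267, 2344 and 2179 to 4913, 4819 and 4749 in Par and from 2759, 2569.9 and 2809.5 to 3566, 3566 and 3711 in GemR siSTIM1. It started higher and ended lower in GemR siSTIM1 (−0.68 ± 0.08, adjusted p = 2.7e-05). HMOX1, heme oxygenase, rose in Par and was not called in GemR siSTIM1 (−1.48 ± 0.37, adjusted p = 0.018), a call lost without Par vehicle replicate 1 or Par thapsigargin replicate 1 (adjusted p up to 0.055). SLC7A11, described above, belongs to this list too, and TXNRD1, thioredoxin reductase, was at −0.48 ± 0.12 (adjusted p = 0.020), with the call lost in 5 of the 12 fits with 1 library left out (adjusted p up to 0.065, without Par vehicle replicate 1).

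Cytosolic heat shock genes fell with thapsigargin, 11 of 13 in Par and 8 of 13 in GemR siSTIM1, where 19.7% and 11.9% of all genes fell. The difference was higher for 3 of 13, against 3.05% of all genes, and lower for none (median 0.19). HSPA1A (chromosome 6, 31815464 to 31817946), an inducible HSP70, was at 1289, 1088 and 1219 in Par vehicle and 206, 244 and 235 in Par thapsigargin, and at 979.7, 1056 and 950.4 and 549.5, 519.5 and 517 in GemR siSTIM1. The fall was 5.23-fold in Par and 1.88-fold in GemR siSTIM1, which started slightly lower and ended clearly higher (1.48 ± 0.12, adjusted p = 3.4e-07). HSPA1B, its near-identical neighbour, differed by 1.02 ± 0.11 (adjusted p = 6.7e-06), and how the counting divided reads between the 2 copies is uncertain. DNAJB1, an HSP40 cochaperone, differed by 0.37 ± 0.09 (adjusted p = 0.013).

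Cell cycle genes responded in much the same direction in both lines. Of 24 S phase genes 21 fell in each, and the difference was called for 2. FAM111B, a protease of replicating cells, was at 389.8, 358 and 339 in Par vehicle and 29.3, 32.4 and 27.03 in Par thapsigargin, and at 1097, 1046 and 1026 and 272, 349.7 and 349.7 in GemR siSTIM1. It fell by less in GemR siSTIM1, from a higher start (1.86 ± 0.17, adjusted p = 1.1e-06). CDC6, which loads the replicative helicase, rose in both, and by less in GemR siSTIM1 (−0.69 ± 0.07, adjusted p = 7.4e-06). Among 22 G2/M genes 12 fell in Par and 19 in GemR siSTIM1, and the difference was lower for KIF23, a kinesin of cytokinesis (−0.46 ± 0.10, adjusted p = 0.0067), and the spindle factor TPX2 (−0.33 ± 0.09, adjusted p = 0.034). A call was lost for TPX2 in 9 of the 12 fits with 1 library left out (adjusted p up to 0.087, without Par thapsigargin replicate 3). Without GemR siSTIM1 thapsigargin replicate 2, 7 of the 22 were lower.

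Most developmental and epithelial genes on the lists were not called. SOX9, a transcription factor of ductal cells, was at 548, 711 and 676 in Par vehicle and 176, 217 and 174 in Par thapsigargin, and at 397, 331 and 476 and 357, 344 and 335 in GemR siSTIM1. It fell in Par without overlap, while the GemR siSTIM1 groups overlapped (1.57 ± 0.18, adjusted p = 1.5e-05). The ligand BMP4 and its target ID3 were higher as well, at 1.20 ± 0.23 and 0.79 ± 0.18 (adjusted p = 0.0026 and 0.0098). This made 3 of 20 Wnt, BMP and SOX genes higher, against 3.05% of all genes, and none lower (median −0.01). Among 16 epithelial junction and keratin genes, 4 were lower and 1 higher, and without GemR siSTIM1 thapsigargin replicate 1, 3 were lower and none higher. CLDN1, a tight junction claudin, rose in Par from 4179.6, 4288 and 4199.6 to 8276, 7709 and 7358, and in GemR siSTIM1 it was at 10141, 9386 and 10618 before and 9768, 9921 and 10768 after (−0.86 ± 0.09, adjusted p = 4.1e-06). ESRP1, an epithelial splicing factor, and ELF3, an epithelial ETS factor, differed by −0.70 ± 0.09 and −0.89 ± 0.18 (adjusted p = 8.8e-05 and 0.0037). CLDN3 was the higher gene (0.76 ± 0.23, adjusted p = 0.049), a call lost in 9 of the 12 fits with 1 library left out (adjusted p up to 0.14, without GemR siSTIM1 thapsigargin replicate 1). Of 12 mesenchymal genes 1 was called, SNAI2 (Slug), at −0.51 ± 0.12 (adjusted p = 0.015, and 0.060 by edgeR).

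Among genes of cell death and p53, TNFRSF10B, the death receptor DR5 that CHOP induces, rose from 2987, 3537 and 3253 to 8032, 7708 and 7478 in Par and from 2524, 2379.8 and 2612 to 3534, 3459 and 3714 in GemR siSTIM1. Both groups of GemR siSTIM1 were lower than their Par counterparts, and the difference was −0.74 ± 0.10 (adjusted p = 6.2e-05). GADD45A, a growth arrest gene, and PMAIP1 (NOXA), a BH3-only protein, were lower at −0.71 ± 0.14 and −0.86 ± 0.17 (adjusted p = 0.0043 and 0.0036). BCL2, the anti-apoptotic founder of its family, was at −1.25 ± 0.30 (adjusted p = 0.016), with the call lost without GemR siSTIM1 vehicle replicate 1 (adjusted p = 0.051). By list, 3 of 18 p53 targets and 2 of 13 BCL2 family genes were lower, against 4.93% of all genes, and none higher. Without GemR siSTIM1 thapsigargin replicate 1 these counts were 2 of 18 and 3 of 13. Without GemR siSTIM1 vehicle replicate 1, 1 of the 13 was lower.

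The 13 genes of gemcitabine uptake and metabolism tested gave 3 lower, against 4.93% of all genes, and none higher, with a median of −0.01. NT5C2, a nucleotidase, was at −0.43 ± 0.10 and SLC29A2, a nucleoside carrier, at −0.42 ± 0.12 (adjusted p = 0.012 and 0.036). RRM2B, a p53-induced ribonucleotide reductase subunit, was at −0.62 ± 0.17 (adjusted p = 0.035). Calls were lost for SLC29A2 in 8 of the 12 fits with 1 library left out (adjusted p up to 0.084, without Par thapsigargin replicate 2) and RRM2B in 8 of the 12 fits with 1 library left out (adjusted p up to 0.10, without GemR siSTIM1 vehicle replicate 1). Without GemR siSTIM1 thapsigargin replicate 1, 1 of the 13, NT5C2, was called. Hypoxia and glycolysis genes were lower at 2 of 17 and higher at none, where 4.93% of all genes were lower. The list median was 0.12, on the higher side. SLC2A1, the glucose carrier GLUT1, fell in both lines and by more in GemR siSTIM1 (−0.58 ± 0.11, adjusted p = 0.0021). ADM, adrenomedullin, rose in Par and fell in GemR siSTIM1 (−0.75 ± 0.13, adjusted p = 0.0010). No interferon-stimulated gene of 14 was called by limma, and 0 to 2 were called higher over the settings tried. OAS1, an antiviral RNA sensor, was closest (0.71 ± 0.22, adjusted p = 0.052), with levels of 343, 308 and 334 in GemR siSTIM1 vehicle against 193, 168 and 128 in Par vehicle.

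**Figure D4:**
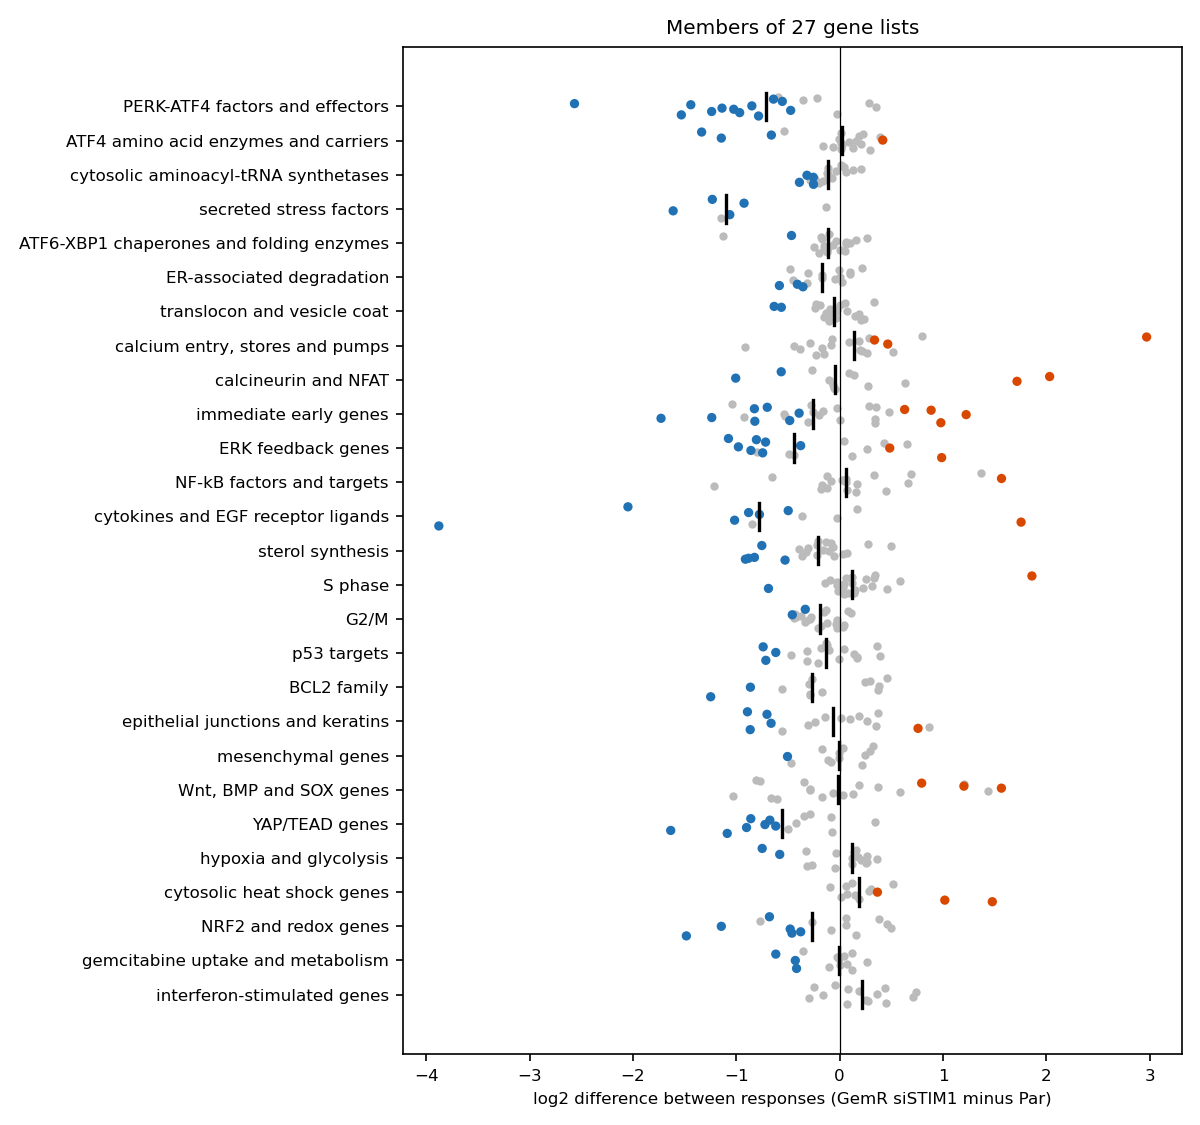
Difference between responses (log2, x axis) of every tested member of 27 gene lists. Each point is a gene, orange where called higher, blue where called lower and grey where not called, and black bars are the list medians. The medians of the PERK-ATF4 list (−0.71), the secreted stress factors (−1.10) and the cytokines (−0.78) lie left of 0, that of the ATF6-XBP1 list (−0.11) near it.

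The marker lists of other cell types held 1 called gene. CDH5, the endothelial cadherin, was at 119, 122 and 162 in Par vehicle and 176, 133 and 133 in Par thapsigargin, and at 35.3, 22.4 and 40.7 and 95.9, 82.9 and 105 in GemR siSTIM1 (1.40 ± 0.27, adjusted p = 0.0030). The endothelial markers VWF and KDR reached at most 8.50 and 2.42 in any of the 12 libraries. PECAM1, another endothelial marker, was present in all of them at 55.3 to 144, and its difference was not called. The fibroblast markers tested were not called: COL1A1 was at −0.01, COL1A2 at 0.53 and ACTA2 at 0.19. Among the epithelial markers CEACAM6 was higher (0.95 ± 0.23, adjusted p = 0.016), a call lost without Par vehicle replicate 1 (adjusted p = 0.051), and the other 7 were not called.

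The difference between responses fell with transcript length across genes. Over 12419 genes with a length, Spearman's rho was −0.385 as a description across genes, which are not independent replicates. For the single responses rho was 0.24 in Par, −0.13 in GemR siSTIM1 and 0.25 in GemR siCont. For the difference between GemR siCont and Par it was −0.02. In the shortest of 5 classes by length the median difference was 0.19, with 80 genes higher and 34 lower. In the longest it was −0.23, with 28 higher and 208 lower. Leaving out GemR siSTIM1 thapsigargin replicate 1, rho was −0.290 and these medians were 0.12 and −0.15, with 33 higher and 23 lower among the shortest and 27 and 118 among the longest. With each library's own trend on length subtracted, an alternative added after the data were seen, 1517 genes were called, 672 higher and 845 lower, 917 of them among the 1045. The part of length in single genes was not tested further. The named genes THBS1, ELMSAN1, PXDN and PLEKHA6, all on the lower side, have long transcripts (median 7775, 7721, 6808 and 5704 bases), and their differences with the trend subtracted were −1.45, −1.44, −1.996 and −1.72, each still called. CHAC1, ATF3 and CEBPB, with 1425, 1387.5 and 1956 bases, were at −2.69, −1.66 and −1.31.

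**Figure D5:**
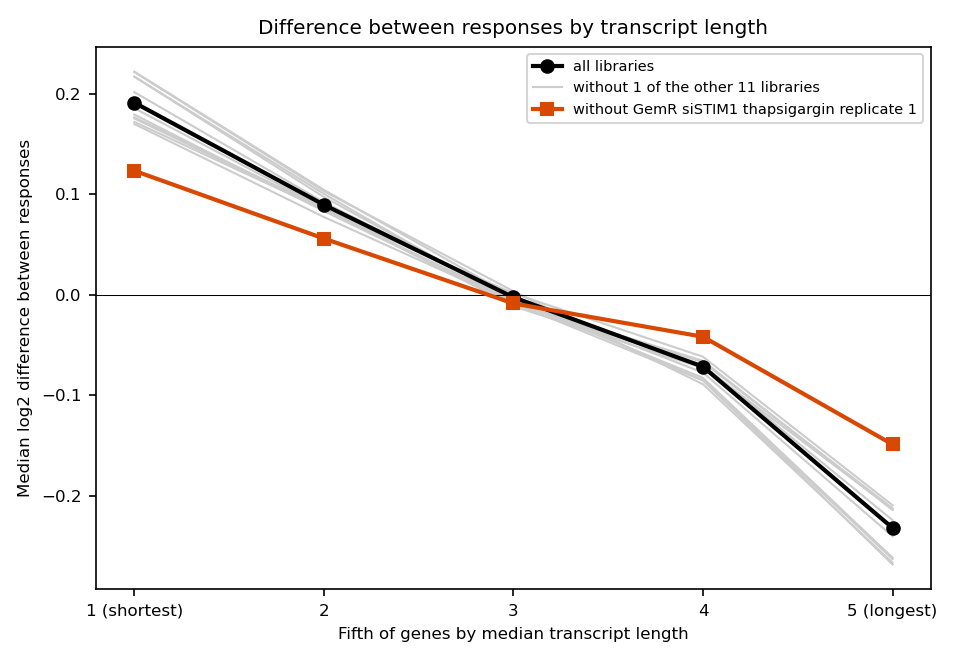
Median difference between responses (log2, y axis) in 5 equal classes of 12419 genes ordered by median transcript length (x axis). The black line uses all libraries and runs from 0.19 to −0.23, the orange line leaves out GemR siSTIM1 thapsigargin replicate 1 and runs from 0.12 to −0.15, and the grey lines leave out 1 of the other 11 libraries.

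Of the 101 genes named by the rule in the methods, 95 were called in the difference. Over 25 other settings of the analysis none of the 95 reversed its direction, and 66 were called in every setting in which they were tested, among them CHAC1, ATF3, SESN2, CEBPB, RCAN1, RRAD, IL1A, EGR1, CTGF, THBS1, PMP22, LBH and SOX9. IL1A was tested in 24 of the settings. RRM1 and ACTA2, which were not called, lay near 0 and changed sign between settings (−0.07 to 0.02 and −0.06 to 0.54).

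GemR cells with siCont give the background without STIM1 depletion. Their difference from Par uses the same Par libraries, so the values stand side by side only, and whether the 2 differences differ was not tested. The deviation of GemR siCont vehicle replicate 1 from its group fell with transcript length (Spearman's rho −0.60, against 0.43 and 0.54 in the other 2 replicates). The siCont values are given with that library only. For siCont 1938 of 13096 genes were called (14.8%), 935 higher (7.14%) and 1003 lower (7.66%). The PERK-ATF4 list was lower at 13 of 18 (median −0.78) and the ATF6-XBP1 list at 6 of 20 (median −0.28). CHAC1 was at −2.16 with siCont and −2.56 with siSTIM1, RCAN1 at 2.13 and 2.03, and EGR1 at −2.50 and −1.73. RRAD was at 5.44 and 2.97, NFATC2 at 2.64 and 1.72, SOX9 at 2.84 and 1.57, and FAM111B at 0.77 and 1.86. ELF3 and CDH5 gave values of unlike size or sign, 1.27 with siCont against −0.89 with siSTIM1 for ELF3 and 0.06 against 1.40 for CDH5.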

How the data were processed

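The data were RNA-seq libraries of a pancreatic cancer cell line, 18 in 6 groups of 3, of which 12 in 4 groups were compared here. Per the submitters' processing notes, the authors used STAR 2.6.0c, HTSeq 0.11.1 and DESeq2 on the build hg38, and the strand setting of the counting is not given in the sources used here. Values deposited were normalized counts (a signal per gene), which divided read counts by 1 size factor per library. Undoing that division returned whole reads (tolerance 0.01) in 17 of 18 libraries, and 1 library, GemR siSTIM1 vehicle replicate 3, had a factor too near 1 for that check. Further deposited tables hold the authors' DESeq2 comparisons, with log2 fold changes, standard errors, a test score and p-values, which were not used for the values printed.

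The log2(normalized count + 1) of the deposited values was fitted with limma 3.58.1 (prior variance with a trend, R 4.3.3) as 6 group means over all 18 libraries, with 12 residual degrees of freedom, for the 13096 of 26485 genes with a mean of at least 10. P-values were adjusted by Benjamini-Hochberg over all genes tested, with a threshold of 0.05. The contrast was tested as an interaction, and the 4 contrasts it is made of were fitted with it. Of the gene names, 28 had been turned into dates by a spreadsheet and 20 of these were tested without a gene name. Named genes comprised the siRNA target STIM1 with its neighbour RRM1, the 12 highest and 12 lowest called differences with a group mean of at least 50, up to 4 called genes of each list of the tested biology by size of change and, where none of a list was called, up to 2 of its members. Some named genes are not reported here. The members of the lists, the comparison and the rule were chosen with earlier results of these data known. Alternatives used other pseudocounts (0.5 and 5), filters, scalings and priors, edgeR 4.0.16 and DESeq2 1.42.0 on recovered reads, the replicate number as a block, and 1 library left out at a time. The fit was tested on simulated data with known changes. Depth of 8922439 to 16519239 reads per library limits genes with few reads. Figures were drawn with Python 3.11.15 and matplotlib 3.10.9.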

Additional observations from a re-analysis of the deposited data

Results flagged for a closer look

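In 7 of the named genes thapsigargin was called in opposite directions in the lines, and limma called the difference between the responses of each. THBS1 (−1.74), ELMSAN1 (−1.72), PXDN (−2.24), SH3RF2 (−1.67), SP6 (−2.27) and ADM (−0.75) rose in Par and fell in GemR siSTIM1, and C11orf86 (2.19) fell in Par and rose in GemR siSTIM1. Adjusted p-values of these differences by limma are given with each gene in the report. Several single responses were nearer the threshold. By limma the falls in GemR siSTIM1 had adjusted p = 0.033 for THBS1, 0.032 for ELMSAN1 and 0.029 for PXDN. The rises in Par had 0.032 for ADM and 0.020 for SP6. SP6 held 29 reads in Par vehicle and 48 in Par thapsigargin. These single responses are not given without GemR siSTIM1 thapsigargin replicate 1.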

How the results depend on the processing

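Under the 25 alternatives, no gene called for the difference between responses in both settings changed direction. For the level in vehicle, 1 gene called in both settings did so with quantile-normalized values. The fit of the 12 compared libraries alone called 2164 genes in the difference (906 higher, 1258 lower). Subtracting each library's trend on transcript length, an alternative chosen after seeing the data, called 1517 (672 higher, 845 lower). edgeR called 744 (347 higher, 397 lower) and DESeq2 1030, both on the 17 libraries with recovered reads. At a minimum of 2-fold, the counts were 200 for the difference (73 higher, 127 lower), 833 for Par, 545 for GemR siSTIM1, 1428 in vehicle and 1508 with thapsigargin. With 1 library left out at a time, the called genes ranged from 621 to 1081, the higher ones from 226 to 383 and the lower ones from 380 to 698. Higher genes fell to 257 without Par vehicle replicate 1, 254 without Par vehicle replicate 2, 241 without Par thapsigargin replicate 1, 226 without GemR siSTIM1 vehicle replicate 1 and 258 without GemR siSTIM1 thapsigargin replicate 1. Lower genes fell to 380 without Par thapsigargin replicate 1, 395 without GemR siSTIM1 vehicle replicate 1 and 408 without GemR siSTIM1 thapsigargin replicate 1. The share of called genes that were higher, 38.3%, reached 47.7% with quantile-normalized values. The cause of these shifts was not tested. With the replicate number as a block 1288 genes were called (504 higher, 784 lower). Same-numbered libraries deviated together with correlations of −0.18 to 0.085, so the numbers were not used as pairs. Of 2616 values of named genes under alternatives, 302 lost their call, 10 gained one and 0 reversed a call. RRM1 and ACTA2, not called, changed sign between settings. Of 750 list medians, 1 moved by more than the spread of its members, that of the fibroblast markers, to 0.54 without Par vehicle replicate 2. Genes with few reads, such as IL1A and RRAD, set the limit of what depth could resolve.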

Other observations

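The opposite responses extended beyond the named genes: 52 of the 1045 genes called rose in one line and fell in the other, 14 with a higher and 38 with a lower value in GemR siSTIM1. Those that follow were chosen after their values were seen. NOG, which encodes the BMP antagonist noggin, fell by 0.55 in Par and rose by 1.13 in GemR siSTIM1 on the log2 scale, a difference of 1.68 ± 0.14 (limma adjusted p = 5.8e-07). EDAR, the ectodysplasin receptor, rose by 0.69 in Par and fell by 1.65 in GemR siSTIM1 (−2.34 ± 0.39, adjusted p = 7.3e-04). The rise of EDAR in Par was at the threshold (limma adjusted p = 0.0495). None of its group means reached the 50 required of the 12 lowest genes. MAP3K14 (NIK), the kinase of noncanonical NF-kB signalling, rose by 0.70 and fell by 0.60 (−1.31 ± 0.14, adjusted p = 7.7e-06). The interleukin 7 receptor gene IL7R rose by 0.84 and fell by 0.56 (−1.40 ± 0.25, adjusted p = 0.0017).

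RPPH1 and RMRP, the RNA components of RNase P and RNase MRP, also responded in opposite directions. RPPH1 was at 17.3, 26.7 and 13.7 in Par vehicle, 4.72, 12.9 and 7.28 in Par thapsigargin, 7.97, 16.3 and 6.95 in GemR siSTIM1 vehicle and 56.3, 28.2 and 42.7 in GemR siSTIM1 thapsigargin. The last group was the highest, and replicate 1 the highest within it (3.13 ± 0.61, adjusted p = 0.0032). RMRP was at 32.5, 32.7 and 27.3 and 15.1, 20.5 and 8.32 in Par and at 26.2, 11.2 and 16.9 and 37.6, 32.1 and 35.5 in GemR siSTIM1 (2.09 ± 0.44, adjusted p = 0.0054). Replicate 1 was again the highest with thapsigargin. By limma the fall of RPPH1 in Par had adjusted p = 0.038 and the rise of RMRP in GemR siSTIM1 0.023. Both genes had low counts, and neither difference is given without replicate 1. Whether the trend of that library on transcript length bears on them was not tested.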
